A study of Mus musculus with 15 samples.

Results

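Interferon-stimulated genes were followed across 3 populations of mouse neutrophils. The set held 44 genes known to be induced by type I or type II interferon, and every probe named for one of them was taken from the array, whatever its value. By this rule 36 genes were measured, with 59 probes, out of 11075 genes and 16316 probes analysed. Ifit1, Ifitm3, Ifi203, Ifi205, Gbp4, Gbp6, Iigp1 and Ifi44 were not analysed here, since no kept probe was named for them.

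All neutrophils came from BALB/c mice. By the labels all were defined by the surface marker Ly6G, while the methods give a Percoll gradient for the marrow cells. Tumor-associated neutrophils (TAN, 4 arrays) came from flank tumors of AB12, a mouse mesothelioma cell line, about 12 to 15 days after injection. Granulocytic myeloid-derived suppressor cells (G-MDSC, 4 arrays) came from spleens of mice with AB12 flank tumors, about 21 to 25 days after injection. Naïve neutrophils (NN, 7 arrays) came from the bone marrow of mice without a tumor. The comparisons ask how neutrophils of the tumor and of the spleen of tumor-bearing mice differ from naïve marrow neutrophils and from each other. RNA of 2 to 4 mice was pooled for an array, and a neutrophil purity over 85% was stated for spleens and tumors. Tissue, day after injection and cell preparation differ between the groups and cannot be told apart. Age and sex are not given in the sources used here.

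Interferons signal through cell surface receptors and Janus kinases to STAT proteins. Type I interferons lead to a complex with STAT2 and IRF9 that binds the interferon-stimulated response element (ISRE) in front of its target genes. Type II interferon, IFN-γ, acts through the gamma-activated site (GAS) and also induces the transcription factor IRF1. The targets include antiviral effectors, sensors of foreign RNA and the guanylate-binding and immunity-related GTPases, and IRF7 raises further type I interferon. In neutrophils of tumors, type I interferon is known to restrain tumor-supporting functions in mice.

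The response elements in front of the measured genes are shown for members of several roles that changed in the arrays. In the 250 bases before the start, an ISRE core, written as GAAA, 2 bases of any kind and GAAA again on either strand (TTTC on the other), was found in 12 of the 28 measured members with a RefSeq promoter (42.9%), against 3.46% of 27025 genes. The GAS letters TTCNNNGAA, which read the same on both strands, were found in 8 of these 28 members (28.6%), against 8.13% of all genes. Overlapping matches were counted once a gene, and a match describes letters, not binding. The stretches below run 5′ to 3′ along the gene's strand (GRCm38.p6), with the ISRE matches in capitals. They lie at chr4:156200855-156200916 (minus strand) for Isg15, chr19:34583353-34583436 (plus strand) for Ifit3, chr12:26456543-26456592 (minus strand) for Rsad2 and chr8:71537567-71537622 (minus strand) for Bst2. Those of the GTPases lie at chr3:142620584-142620633 (plus strand) for Gbp2, chr3:142559979-142560034 (plus strand) for Gbp3 and chr11:58199502-58199551 (plus strand) for Igtp. The stretch of Oas3 lies at chr5:120777705-120777754 (minus strand).
Isg15: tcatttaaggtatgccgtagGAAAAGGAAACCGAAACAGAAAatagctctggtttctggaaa
Ifit3: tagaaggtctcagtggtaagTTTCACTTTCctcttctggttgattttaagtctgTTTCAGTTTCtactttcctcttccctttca
Rsad2: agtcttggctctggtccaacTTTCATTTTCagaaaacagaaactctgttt
Bst2: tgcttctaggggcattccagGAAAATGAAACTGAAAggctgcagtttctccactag
Gbp2: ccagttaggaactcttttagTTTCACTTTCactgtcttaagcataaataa
Gbp3: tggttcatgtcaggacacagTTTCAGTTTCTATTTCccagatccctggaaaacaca
Igtp: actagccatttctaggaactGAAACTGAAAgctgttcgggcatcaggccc
Oas3: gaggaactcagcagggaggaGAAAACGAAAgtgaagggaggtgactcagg

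Values are log2 signals after background correction and quantile normalization, and where a gene has several probes the brightest on average stands for it. Genes are called risen or fallen where limma's Benjamini-Hochberg adjusted p, over all probes, was under 0.05. Of the 36 members, 33 to 34 were above background in the TAN arrays, 34 to 35 in G-MDSC and 32 to 35 in NN. A few facts of the whole series bear on these values. Over all probes the arrays of a group correlated at 0.893 or more in TAN, 0.955 or more in G-MDSC and 0.983 or more in NN. Background signal was higher on the arrays of all G-MDSC, NN 6 and NN 7 than on those of all TAN and NN 1 to NN 5, so that no background level holds both TAN and G-MDSC. TAN 3 stood apart from the other TAN and is given apart below.

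Markers of other cells moved with the groups. The mean log2 signal of 10 macrophage and monocyte markers was 10.53 to 12.66 in TAN (highest in TAN 3), 9.05 to 9.60 in G-MDSC and 8.96 to 9.79 in NN. All 10 were above background on every array, and 7 rose in TAN relative to NN, where 36.8% of all genes rose. Over 8 markers of tumor and stroma it was 8.25 to 8.44 in TAN, 6.49 to 6.67 in G-MDSC and 6.69 to 7.21 in NN. The 4 erythroid markers, all lower in TAN and G-MDSC than in NN, ranged from 7.39 to 8.04 in TAN and from 8.03 to 9.21 in G-MDSC, against 13.69 to 14.00 in NN. Over 11 neutrophil markers the mean was 12.29 to 13.20 in TAN, 14.56 to 14.73 in G-MDSC and 15.04 to 15.13 in NN. The 4 markers of plasmacytoid dendritic cells, the classical producers of type I interferon, ranged from 7.39 to 8.21 in TAN, from 7.62 to 9.08 in G-MDSC and from 7.73 to 8.13 in NN. B cell markers reached 10.60 and T and NK cell markers 8.95 in G-MDSC 1, against at most 7.62 and 7.26 in the other G-MDSC. The part of other cells in the results below was not tested, and in such sorted but mixed RNA fewer cells of a type and less RNA per cell cannot be told apart.

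The interferon-stimulated genes were higher in both populations of tumor-bearing mice than in NN. Relative to NN, 22 of the 36 members rose in TAN (61.1%) and 4 fell (11.1%), while 36.8% of all genes rose and 26.2% fell. In G-MDSC, 23 members rose (63.9%) and none fell, where 18.3% of all genes rose and 19.7% fell. Between TAN and G-MDSC, 14 members were higher in TAN (38.9%) and 9 lower (25%), near the 36.4% and 22.6% of all genes. By the brightest probes, the median log2 difference of the members was 1.71 for TAN minus NN (0.12 over all genes) and 0.92 for G-MDSC minus NN (-0.01 over all genes). It was 0.28 for TAN minus G-MDSC (0.13 over all genes). The larger median in TAN depended on the probe. Over all 59 probes of the members the medians were 1.19, 1.28 and 0.16 in this order of comparisons. With the mean over a gene's probes they were 1.08, 0.94 and 0.15. The comparisons with NN share the NN arrays. The mean log2 signal over the 36 members was 10.58 to 11.50 in TAN, 10.54 to 11.30 in G-MDSC and 9.72 to 9.78 in NN, so that every array of a tumor-bearing mouse lay above every NN.

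**Figure D1:**
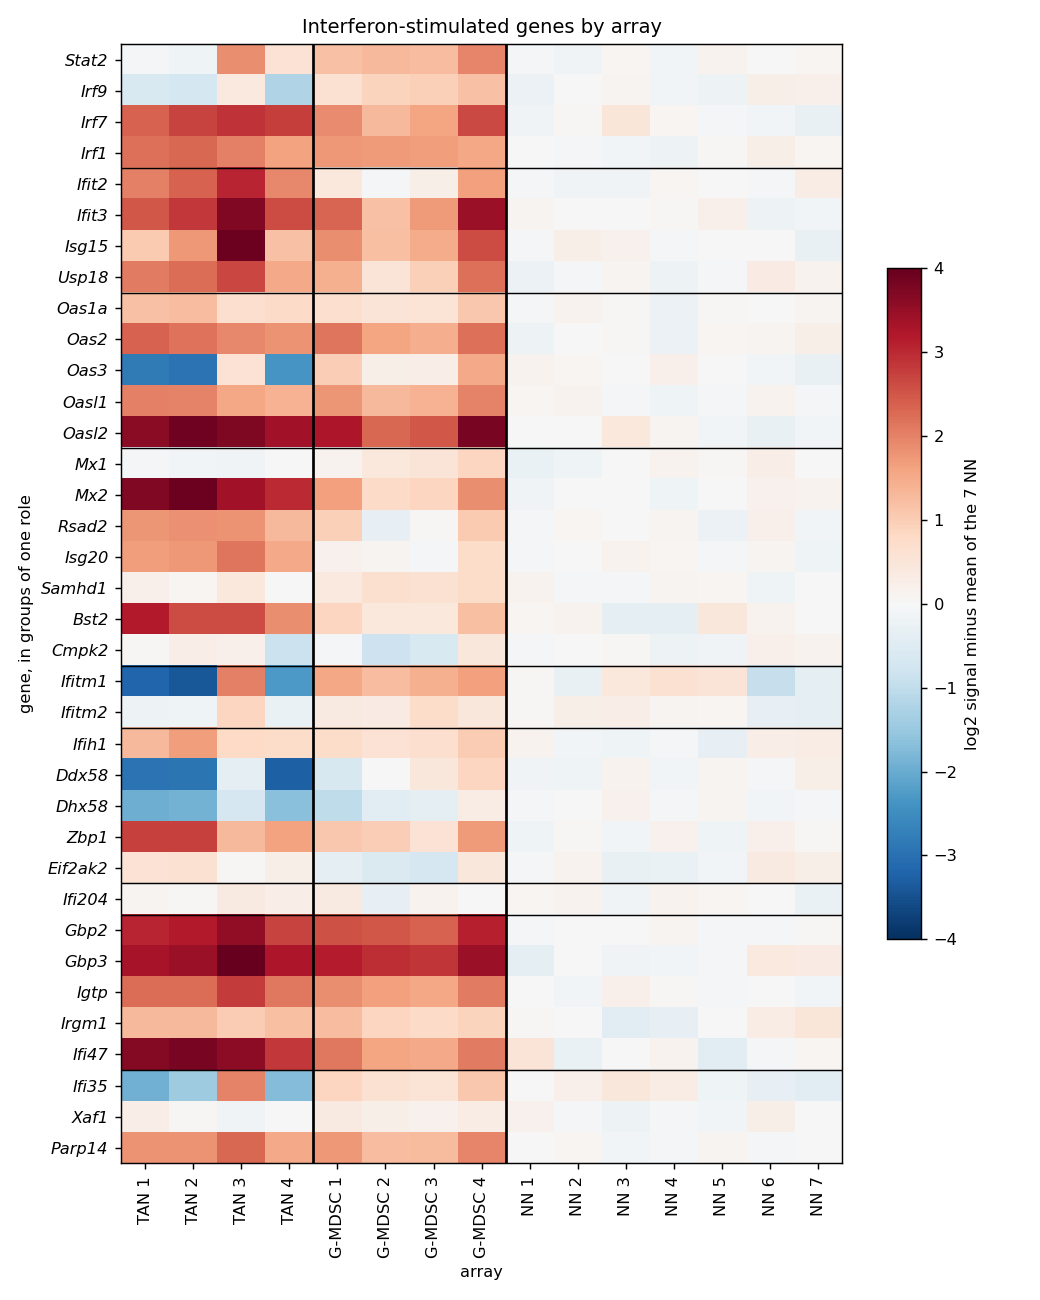
Log2 signal of the 36 interferon-stimulated genes (rows, grouped by role with lines between roles) on each of the 15 arrays (columns, TAN then G-MDSC then NN), as the difference from the mean of the 7 NN (color scale). Most rows are red in TAN and G-MDSC, while Oas3, Ifitm1, Ddx58 and Ifi35 are deep blue in TAN 1, TAN 2 and TAN 4 and pale or red elsewhere.

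The arrays differed in precision. The median SD of a member was 0.43 in TAN, 0.35 in G-MDSC and 0.16 in NN on the log2 scale. The highest SD in TAN, 2.53, was that of Ifitm1. With 4 arrays in each of TAN and G-MDSC, the number of arrays limits the precision of every difference. The SE of a difference comes from a spread shared by all groups, so it does not measure the SD of the groups compared. A wide spread in TAN thus also enters G-MDSC minus NN.

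The transcription factors of the pathway rose in G-MDSC, all 4 of 4, where 18.3% of all genes rose. In TAN, Irf7 and Irf1 rose, Irf9 fell and Stat2 did not pass the test, where 36.8% of all genes rose and 26.2% fell. Irf7, the factor that amplifies type I interferon, had log2 signals of 12.30, 12.65, 12.84 and 12.71 in TAN 1 to 4 and of 11.85, 11.26, 11.52 and 12.59 in G-MDSC 1 to 4, against 9.66 to 10.42 (median 9.88) in NN. All TAN and G-MDSC lay above every NN. The log2 difference was 2.68 ± 0.21 (SE) for TAN minus NN (adjusted p = 1.51e-08) and 1.86 ± 0.21 for G-MDSC minus NN (adjusted p = 2.54e-06). Irf1, a factor induced by type II interferon and other inflammatory signals, had 15.24, 15.33, 15.04 and 14.64 in TAN and 14.77, 14.73, 14.69 and 14.58 in G-MDSC, against 12.81 to 13.25 (median 13.04) in NN. Again no TAN or G-MDSC overlapped with NN. Its log2 difference was 2.04 ± 0.12 (SE) for TAN minus NN (adjusted p = 7.06e-10) and 1.66 ± 0.12 for G-MDSC minus NN (adjusted p = 2.06e-08).

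Stat2 and Irf9, which encode parts of the type I complex, did not follow Irf7 in TAN. Stat2 had log2 signals of 8.27, 8.16, 10.19 and 8.92 in TAN 1 to 4 and of 9.50, 9.63, 9.57 and 10.27 in G-MDSC, against 8.20 to 8.47 (median 8.33) in NN. TAN 1 and TAN 2 lay within or below the NN range, TAN 3 was the highest TAN, and every G-MDSC lay above NN. Stat2 rose by 1.41 ± 0.29 (SE) in G-MDSC relative to NN (adjusted p = 0.000944). TAN minus NN was 0.56 (adjusted p = 0.103), and passed without TAN 1 (0.76, adjusted p = 0.0404) or without TAN 2 (0.80, adjusted p = 0.0276). Without TAN 3 it was 0.12 (adjusted p = 0.546), and for TAN 3 alone 1.87. Irf9 had 10.99, 10.89, 11.99 and 10.38 in TAN and 12.22, 12.48, 12.56 and 12.77 in G-MDSC, against 11.37 to 11.83 (median 11.58) in NN. TAN 1, TAN 2 and TAN 4 lay below every NN, and TAN 3 and all G-MDSC above. Irf9 fell by 0.53 in TAN relative to NN (adjusted p = 0.043), a call that 9 of the 15 fits without 1 array lost. Without TAN 3 the difference was -0.84 (adjusted p = 9.25e-05). The dimmer probe of Irf9 gave -0.23 for TAN minus NN, which did not pass the test. By that probe TAN 1 to 4 had 8.82, 8.79, 8.22 and 8.36, within the NN range of 8.12 to 9.37 and with TAN 3 the lowest. In G-MDSC Irf9 rose by 0.91 (adjusted p = 0.0035), a call lost once background level was blocked, that is, entered as a term of the fit (0.69, adjusted p = 0.121).

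Among the IFIT proteins, which bind viral RNA, and the ISG15 system, all 4 measured members rose in TAN and 3 of 4 in G-MDSC. Over all genes, 36.8% rose in TAN and 18.3% in G-MDSC. Isg15, a ubiquitin-like modifier, had log2 signals of 11.82, 12.50, 14.70 and 11.95 in TAN 1 to 4 and of 12.63, 11.99, 12.25 and 13.40 in G-MDSC 1 to 4, against 10.46 to 11.02 (median 10.79) in NN. TAN 3 was far above the other TAN, and no TAN or G-MDSC overlapped with NN. The log2 difference was 1.97 ± 0.42 (SE) for TAN minus NN (adjusted p = 0.000661) and 1.79 ± 0.42 for G-MDSC minus NN (adjusted p = 0.00279). Without TAN 3 the TAN difference was 1.31, and with TAN 3 as the only TAN it was 3.92.

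Ifit3 rose in both populations and Ifit2 in TAN, and one gene was not tested against the other. Ifit3 had log2 signals of 12.14, 12.49, 13.36 and 12.27 in TAN and of 11.98, 10.84, 11.38 and 13.10 in G-MDSC, against 9.45 to 9.88 (median 9.66) in NN. Both populations lay wholly above NN, with log2 differences of 2.90 (adjusted p = 9.06e-07) for TAN and 2.16 (adjusted p = 5.08e-05) for G-MDSC. Ifit2 had 10.94, 11.28, 11.94 and 10.84 in TAN and 9.34, 8.86, 9.13 and 10.56 in G-MDSC, against 8.77 to 9.20 (median 8.87) in NN. Only G-MDSC 4 stood clearly above NN, G-MDSC 2 and 3 overlapped with it, and every TAN lay above. Ifit2 rose by 2.34 in TAN relative to NN (adjusted p = 1.14e-06) and TAN minus G-MDSC was 1.78 (adjusted p = 0.000116), while G-MDSC minus NN was 0.57 (adjusted p = 0.105). This difference of Ifit2 in G-MDSC passed without G-MDSC 2 (0.77, adjusted p = 0.0419) and with arrays scaled to the median (0.75, adjusted p = 0.0362). Usp18, the protease that removes ISG15 and dampens type I receptor signalling, had 12.52, 12.66, 13.09 and 11.96 in TAN and 11.84, 10.96, 11.38 and 12.64 in G-MDSC, against 10.20 to 10.75 (median 10.39) in NN. TAN and G-MDSC lay above NN on every array. Usp18 rose by 2.13 in TAN (adjusted p = 2.63e-06) and by 1.28 in G-MDSC (adjusted p = 0.000897) relative to NN, and the G-MDSC call was lost among arrays of one background level (adjusted p = 0.118).

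**Figure D2:**
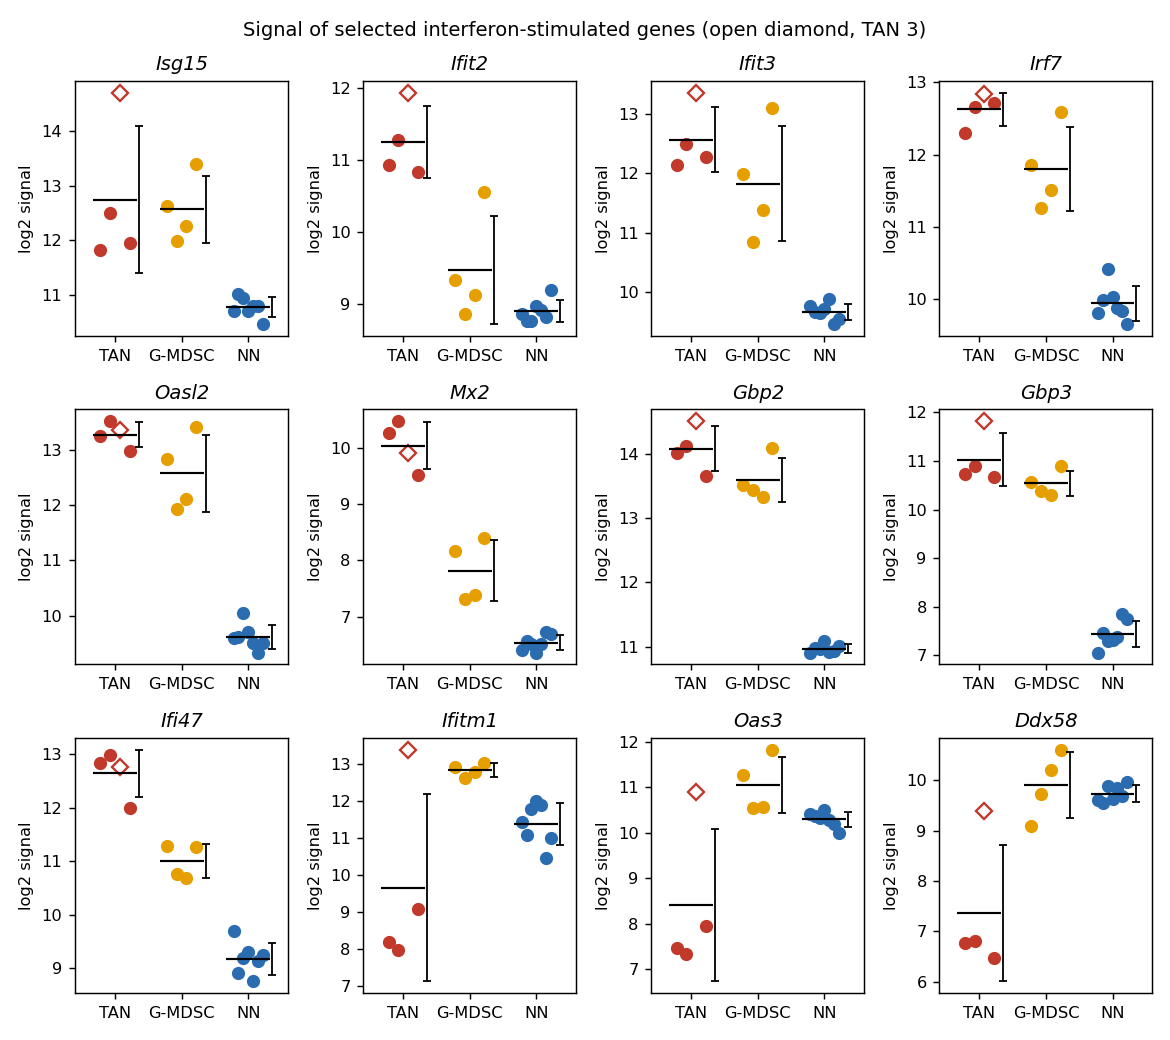
Log2 signal of 12 interferon-stimulated genes in TAN (n = 4), G-MDSC (n = 4) and NN (n = 7). Each point is 1 array, the open diamond is TAN 3, horizontal lines are group means and error bars show the SD. Gbp2, Gbp3 and Oasl2 lie above NN on all TAN and G-MDSC arrays, and TAN 3 stands above the other TAN for Isg15, Ifitm1, Oas3 and Ddx58.

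The oligoadenylate synthetase family, whose enzymes make the activator of RNase L, held the member with the largest rise in TAN by its brightest probe. Oasl2, a family member related to them, had log2 signals of 13.24, 13.51, 13.35 and 12.98 in TAN and of 12.84, 11.92, 12.10 and 13.42 in G-MDSC, against 9.33 to 10.04 (median 9.59) in NN. Every TAN and G-MDSC lay above every NN, by 3.65 ± 0.23 (SE) for the TAN mean (12.6-fold, adjusted p = 1.2e-09) and 2.95 ± 0.23 for the G-MDSC mean (7.74-fold, adjusted p = 3.92e-08). The dimmer probe of Oasl2 gave 1.02 for TAN minus NN, which did not pass the test, and the mean over both probes gave 2.34. Oas2 had 12.92, 12.72, 12.48 and 12.35 in TAN and 12.69, 12.14, 12.02 and 12.75 in G-MDSC, against 10.33 to 10.78 (median 10.60) in NN. TAN and G-MDSC overlapped with each other and not with NN, and Oas2 rose by 2.06 in TAN (adjusted p = 1.02e-08) and by 1.84 in G-MDSC (adjusted p = 9.94e-08). Oasl1, which is known to restrain translation of Irf7 in mice, rose by 1.74 and Oas1a by 0.95 in TAN, and by 1.61 and 0.70 in G-MDSC.

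Oas3 went the other way in TAN. It had log2 signals of 7.46, 7.34, 10.88 and 7.94 in TAN 1 to 4 and of 11.28, 10.54, 10.56 and 11.82 in G-MDSC, against 9.99 to 10.49 (median 10.32) in NN. TAN 1, TAN 2 and TAN 4 lay below every NN, and TAN 3 and all G-MDSC above. Oas3 fell by 1.89 in TAN relative to NN (adjusted p = 0.00376), with a difference of -2.71 without TAN 3, while the single array TAN 3 minus NN gave 0.59. The dimmer probe of Oas3 gave 0.14 for TAN minus NN.

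Of the 7 antiviral effectors, 4 rose in TAN and 4 in G-MDSC relative to NN, and 4 were higher in TAN than in G-MDSC, where 36.8%, 18.3% and 36.4% of all genes did so. Mx2, a dynamin-like GTPase, had log2 signals of 10.26, 10.47, 9.91 and 9.52 in TAN and of 8.17, 7.32, 7.38 and 8.39 in G-MDSC, against 6.36 to 6.72 (median 6.52) in NN. The 3 groups did not overlap. Mx2 rose by 3.50 ± 0.21 (SE) in TAN (11.3-fold, adjusted p = 6.36e-10) and by 1.28 ± 0.21 in G-MDSC (adjusted p = 0.00012) relative to NN, and TAN minus G-MDSC was 2.22 (adjusted p = 1.25e-06). Bst2, or tetherin, which holds budding virus at the cell surface, had 10.24, 9.69, 9.69 and 8.93 in TAN and 7.93, 7.49, 7.50 and 8.30 in G-MDSC, against 6.69 to 7.53 (median 7.15) in NN. G-MDSC 2 and 3 lay within the NN range and every TAN above all other arrays. Bst2 rose by 2.56 in TAN (adjusted p = 7.22e-08) and by 0.73 in G-MDSC relative to NN (adjusted p = 0.0188), a call lost without G-MDSC 4 (adjusted p = 0.085) and once background level was blocked (adjusted p = 0.167).

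Rsad2, which encodes viperin, and Isg20, an RNA exonuclease, rose in TAN by 1.67 and 1.77 relative to NN, and TAN minus G-MDSC was 1.24 and 1.53. Their differences for G-MDSC minus NN were 0.43 and 0.24, and neither passed the test (adjusted p = 0.134 and 0.214). With arrays scaled to the median both passed (0.80, adjusted p = 0.014, for Rsad2 and 0.44, adjusted p = 0.0262, for Isg20), and Rsad2 also passed without G-MDSC 2 (0.69, adjusted p = 0.0111). Samhd1, which depletes nucleotides, rose by 0.59 in G-MDSC (1.01 with arrays scaled to the median), and TAN minus NN was 0.18 (adjusted p = 0.126), though its dimmer probe rose in TAN by 1.46. Mx1, known to be defective in most inbred mouse strains, was not above background on any TAN array and rose by 0.49 in G-MDSC relative to NN (adjusted p = 0.00558). Mx1 was at least 1.19-fold lower in TAN than in G-MDSC. Once background level was blocked, neither difference of Mx1 passed the test (0.35, adjusted p = 0.154, for G-MDSC minus NN and -0.39, adjusted p = 0.176, for TAN minus G-MDSC). Cmpk2, a mitochondrial nucleotide kinase, passed no test, with differences of -0.08 for TAN minus NN and -0.25 for G-MDSC minus NN.

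The interferon-induced transmembrane proteins block viral entry. Ifitm1 had log2 signals of 8.20, 7.98, 13.38 and 9.08 in TAN 1 to 4 and of 12.92, 12.61, 12.79 and 13.03 in G-MDSC, against 10.47 to 11.99 (median 11.42) in NN. By this brightest probe, TAN 3 lay with the G-MDSC and above NN, and the other TAN below NN. TAN minus NN was -1.71 (adjusted p = 0.0537) with all TAN, -2.95 without TAN 3 (adjusted p = 1.19e-07) and 2.01 for TAN 3 alone, a single array with no spread of its own. G-MDSC minus NN was 1.46 (adjusted p = 0.135 with all arrays, 0.00024 without TAN 3), and no G-MDSC overlapped with NN. A dimmer probe of Ifitm1 kept this order of TAN and NN. Another had 13.28, 13.44, 12.54 and 12.50 in TAN 1 to 4, all above NN (8.80 to 9.87), with no excess of TAN 3. Ifitm2 had 14.77, 14.80, 15.82 and 14.69 in TAN and 15.33, 15.30, 15.71 and 15.43 in G-MDSC, against 14.57 to 15.23 (median 15.04) in NN. These signals are close to 16.01, the highest of any array, and no difference of Ifitm2 passed the test with all arrays, although every G-MDSC lay above every NN. Without TAN 3, both G-MDSC minus NN (0.48, adjusted p = 0.00643) and TAN minus G-MDSC (-0.69, adjusted p = 0.00114) passed, as they did once background level was blocked (0.84, adjusted p = 0.0202, and -0.93, adjusted p = 0.0317).

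The sensors of foreign nucleic acid split in TAN by their brightest probes. Ddx58, which encodes the RNA sensor RIG-I, had log2 signals of 6.78, 6.82, 9.39 and 6.48 in TAN 1 to 4 and of 9.08, 9.73, 10.20 and 10.61 in G-MDSC, against 9.55 to 9.96 (median 9.68) in NN. All TAN lay below every NN, TAN 3 the least so, and G-MDSC spread on both sides of NN. Ddx58 fell by 2.37 ± 0.42 (SE) in TAN relative to NN (adjusted p = 0.000149), and for TAN 3 alone the difference was -0.35. Zbp1, the Z-nucleic acid sensor that can start necroptosis, had 9.72, 9.74, 8.28 and 8.61 in TAN and 8.07, 7.98, 7.58 and 8.70 in G-MDSC, against 6.80 to 7.20 (median 7.02) in NN. It rose by 2.10 in TAN (adjusted p = 3.29e-06) and by 1.09 in G-MDSC (adjusted p = 0.00323) relative to NN, with no overlap with NN. The dimmer probe of Zbp1 gave 0.04 for TAN minus NN. Ifih1, or MDA5, rose by 1.13 in TAN and 0.75 in G-MDSC. Once background level was blocked, the G-MDSC calls of Zbp1 (0.97, adjusted p = 0.0732) and Ifih1 (0.47, adjusted p = 0.152) were lost. Dhx58, or LGP2, a regulator of both RNA helicases, fell by 1.54 in TAN (adjusted p = 2.84e-05), and for TAN 3 alone the difference was -0.66. Neither Ddx58 nor Dhx58 had another kept probe to set beside its fall. Eif2ak2, the RNA-activated kinase PKR, passed no test against NN with all arrays, and TAN minus NN (0.37) passed without G-MDSC 4 (adjusted p = 0.0417).

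The guanylate-binding proteins and the immunity-related GTPases attack vacuoles of intracellular pathogens. All 5 measured members rose in both TAN and G-MDSC relative to NN, where 36.8% and 18.3% of all genes rose. Gbp2 had log2 signals of 14.02, 14.13, 14.51 and 13.66 in TAN and of 13.51, 13.44, 13.33 and 14.09 in G-MDSC, against 10.90 to 11.09 (median 10.96) in NN. The NN were nearly alike, and the lowest G-MDSC lay more than 2 log2 units above the highest NN. Gbp2 rose by 3.11 ± 0.15 (SE) in TAN (8.64-fold, adjusted p = 6.4e-11) and by 2.63 ± 0.15 in G-MDSC (6.18-fold, adjusted p = 1.31e-09) relative to NN. Its dimmer probes, with mean signals of 6.91 and 6.47, gave lower values for TAN minus NN, 0.35 (adjusted p = 0.329) for one of them, and the mean over its probes was 1.48. Gbp3 had 10.73, 10.91, 11.82 and 10.66 in TAN and 10.57, 10.39, 10.30 and 10.89 in G-MDSC, against 7.05 to 7.85 (median 7.37) in NN. It rose by 3.59 in TAN (12.1-fold, adjusted p = 4.9e-10) and by 3.10 in G-MDSC (8.57-fold, adjusted p = 7.51e-09), the largest rise among members in G-MDSC by the brightest probe.

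Ifi47 and Igtp are GTPases of the immunity-related family that respond to IFN-γ. Ifi47 had log2 signals of 12.84, 12.99 and 12.76 in TAN 1 to 3, 12 in TAN 4, and of 11.28, 10.76, 10.69 and 11.26 in G-MDSC, against 8.76 to 9.69 (median 9.19) in NN. The 3 groups did not overlap, and Ifi47 rose by 3.47 in TAN (adjusted p = 4.87e-10) and by 1.82 in G-MDSC (adjusted p = 2.15e-06) relative to NN. TAN minus G-MDSC was 1.65 ± 0.22 (SE, adjusted p = 1.78e-05). Igtp had 12.87, 12.86, 13.42 and 12.72 in TAN and 12.50, 12.26, 12.18 and 12.71 in G-MDSC, against 10.53 to 10.82 (median 10.62) in NN. Its 3 groups did not overlap either, and it rose by 2.34 in TAN (adjusted p = 3.51e-10) and by 1.78 in G-MDSC (adjusted p = 2.36e-08). Irgm1, which governs the loading of such GTPases on membranes, rose by 1.19 and 0.94.

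Among the remaining members, Parp14, an ADP-ribosyltransferase, rose by 1.86 in TAN and 1.55 in G-MDSC relative to NN. Ifi35 behaved like the brightest probe of Ifitm1. Its log2 signals were 6.60, 7.11, 10.51 and 6.80 in TAN, 9.38, 9.14, 9.06 and 9.61 in G-MDSC and 8.08 to 8.96 (median 8.50) in NN. TAN minus NN was -0.77 with all TAN (adjusted p = 0.227), -1.68 without TAN 3 (adjusted p = 4.07e-07) and 1.99 for TAN 3 alone. Xaf1, which promotes apoptosis, and Ifi204, a DNA-binding p200 protein, were near background and passed no test with all arrays. Xaf1 passed for G-MDSC minus NN (0.26) in several alternatives, among them without TAN 3 (adjusted p = 0.0363).

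**Figure D3:**
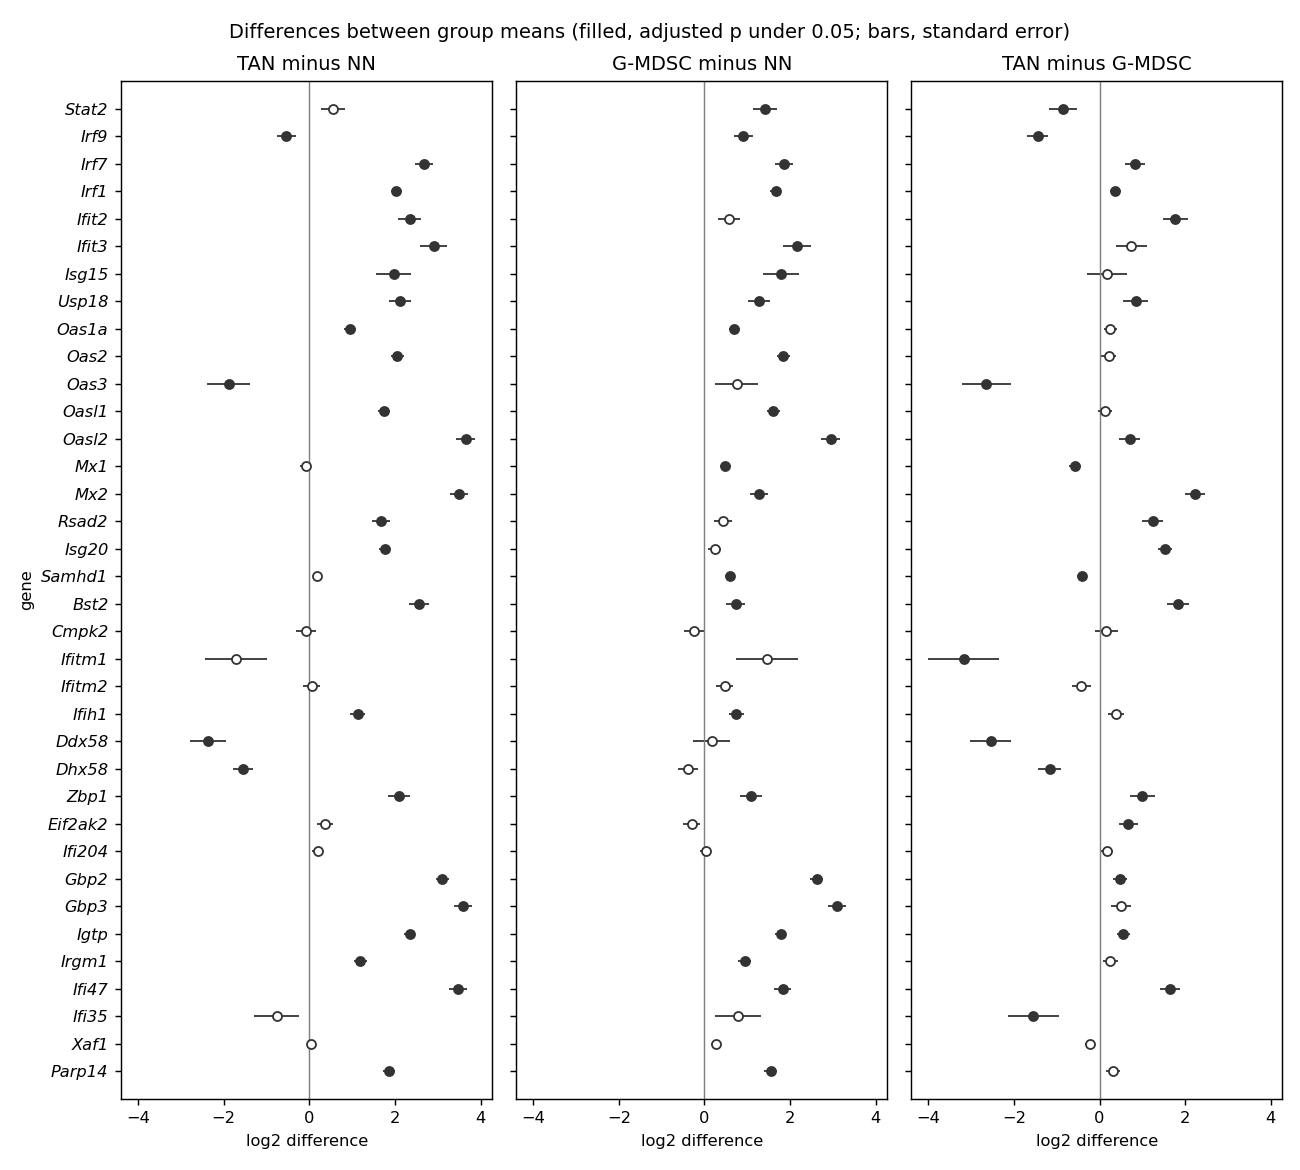
Log2 difference between group means for the 36 members (rows) in TAN minus NN, G-MDSC minus NN and TAN minus G-MDSC, with the standard error as bars. Filled points passed the test (adjusted p under 0.05), 26, 23 and 23 members in these panels. The GTPases lie to the right of 0 in both comparisons with NN, and Oas3, Ddx58 and Dhx58 lie to the left in TAN minus NN.

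The 14 members with several probes showed that the choice of probe matters in TAN. In G-MDSC minus NN, 41 of the 59 probes rose and none fell (18% and 18.5% of all probes). In TAN minus NN, 33 rose and 5 fell (32.7% and 29.1% of all probes). The 3 probes of Ifitm1 gave -1.71 to 3.45 for TAN minus NN and 1.46 to 3.12 for G-MDSC minus NN. The 3 probes of Ifit3 gave -0.34 to 2.90 in TAN and 1.78 to 2.16 in G-MDSC, and those of Usp18 -0.94 to 2.13 in TAN and 0.82 to 1.28 in G-MDSC. Probes of Irf1 moved together, all 5 rising in both populations, by 1.79 to 2.06 in TAN and 1.56 to 2.07 in G-MDSC. Both probes of Gbp3 rose in TAN (2.12 and 3.59), as did both of Ifit2 (2.06 and 2.34). Of the 14 genes, these 3 rose in TAN by every probe, 9 by some of their probes (Gbp2, Ifit3, Ifitm1, Irgm1, Oasl1, Oasl2, Samhd1, Usp18 and Zbp1) and 2 by none (Irf9 and Oas3). In G-MDSC 9 rose by every probe, 3 by some and 2 by none. The same counts were not made over all genes with several probes, so they describe these members only. The mean over a gene's probes gave 0.79 for Ifit3, 1.08 for Oasl1, 1.07 for Zbp1 and 0.63 for Usp18 in TAN minus NN, and that of Usp18 did not pass the test (adjusted p = 0.0598).

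Over 12 members with several probes above background on all NN, the probes of a gene lay over 2 log2 units apart, relative to NN, for 8, 8, 4 and 6 members in TAN 1 to 4. In G-MDSC this held for 0 to 2 members. It held for none in NN, but NN gives no baseline here, since each probe was set against its own NN mean. Over the 1959 genes of all kinds with such probes, the share was 26.6%, 26.3%, 4.90% and 20.7% in TAN 1 to 4. It was 0.613 to 1.53% in G-MDSC. The part of this disagreement in the differences between TAN and the other groups was not tested. Ddx58, Dhx58 and Ifi35 had no other kept probe, so their low values in TAN 1, TAN 2 and TAN 4 could not be set against another.

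**Figure D4:**
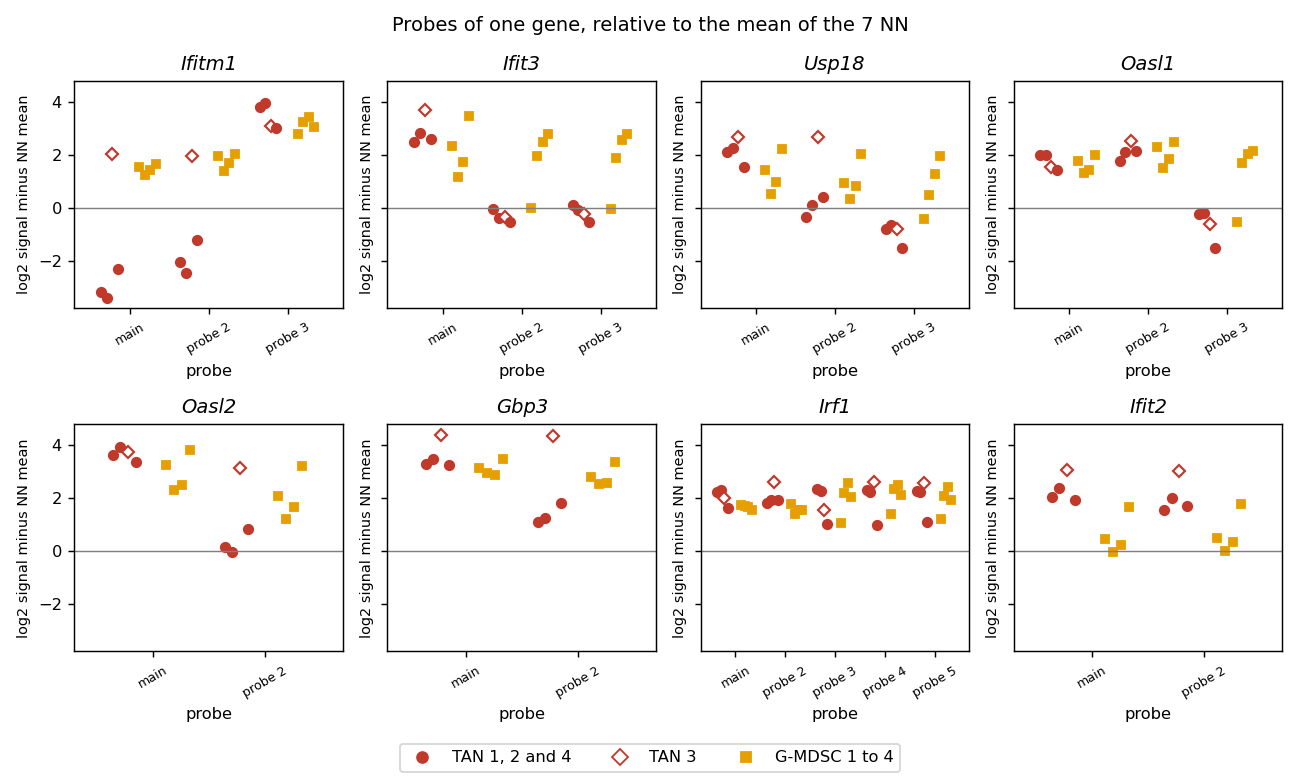
Log2 signal of each probe of 8 interferon-stimulated genes, relative to that probe's mean in the 7 NN, in TAN (circles, with TAN 3 as an open diamond) and G-MDSC (squares). The probe marked as main has the highest mean signal and stands for the gene in the text. The 5 probes of Irf1 lie together, while those of Ifitm1 run from -1.71 to 3.45 for TAN minus NN.

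Arrays of 1 group also differed over the set as a whole. TAN 3 was the highest TAN for 20 of the 36 members (55.6%, against 23.7% of all genes) and lay over 1 log2 unit above the mean of the other TAN for 11 (30.6%, against 7.86%). By the brightest probes, its excess was largest for Ifitm1, at 4.96, followed by Ifi35, Oas3, Ddx58 and Isg15. Another probe of Ifitm1 put TAN 3 below TAN 1 and TAN 2. TAN 3 also had the highest mean of macrophage and monocyte markers of the TAN (12.66) and the highest mean of neutrophil markers (13.20). The markers of a list were uneven. Relative to the mean of the other TAN, macrophage and monocyte markers in TAN 3 ran from -0.19 (Trem2) to 4.72 (C1qa), with 4.27 for C1qc but 0.80 for C1qb. Neutrophil markers ran from -0.60 (Retnlg) to 4.64 (Ngp). TAN 4 was the lowest TAN for 21 members (58.3%, against 12.5% of all genes). Among G-MDSC, G-MDSC 4 was the highest for 30 members (83.3%, against 19.8% of all genes), with a median of 0.60 above the others (-0.01 over all genes). The excess of G-MDSC 4 was 1.70 for Ifit3, 1.45 for Ifit2, 1.25 for Usp18 and 1.11 for Isg15, but 0.66 for Gbp2, 0.47 for Gbp3 and -0.15 for Irf1. G-MDSC 4 also had the highest erythroid markers of its group (9.21, against 8.03 to 8.75) and the highest neutrophil markers (14.73, against 14.56 to 14.65), and the lowest T and NK cell markers (7.19). Its markers of macrophages (9.56), B cells (7.62) and plasmacytoid dendritic cells (7.90) lay within the range of the other G-MDSC, and the part of these cells in its excess was not tested. Without G-MDSC 4, 22 members rose in G-MDSC relative to NN and 1, Eif2ak2, fell (-0.55, adjusted p = 0.0166).

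**Figure D5:**
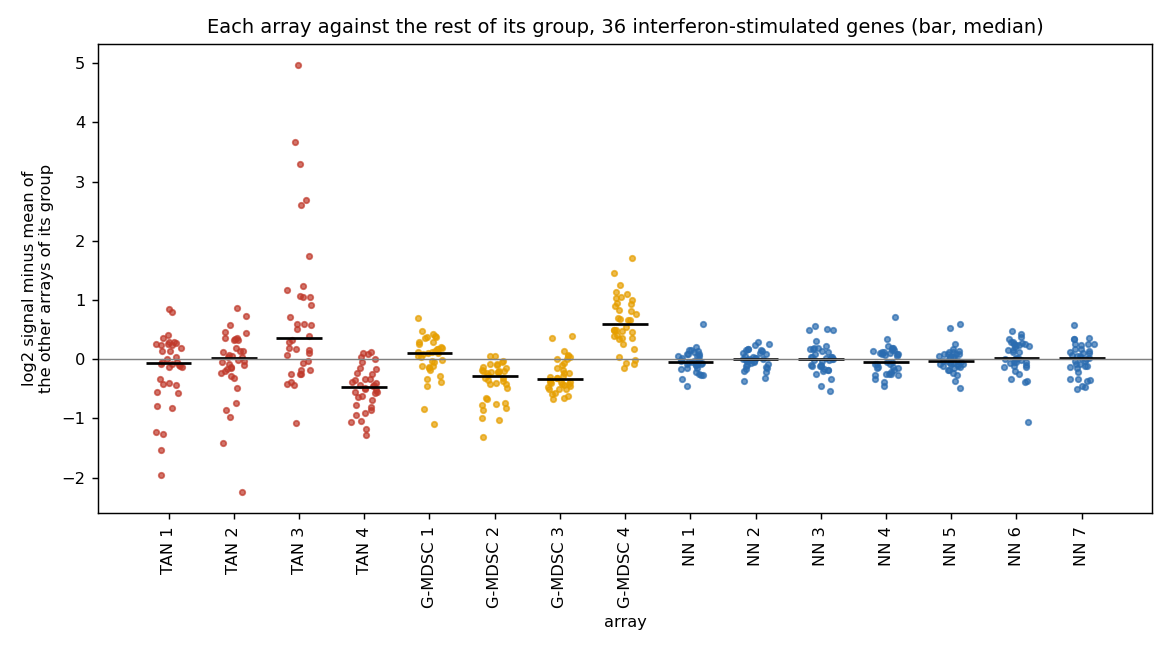
Log2 signal of each of the 36 members (points) on each array, minus the mean of the other arrays of its group, with the median over members as a bar. The bar stands at 0.60 for G-MDSC 4, 0.36 for TAN 3 and -0.47 for TAN 4, and lies near 0 for every NN.

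Genes upstream in the pathway were read from lists of their own. These lists are short, and their counts stand beside the 36.8% of all genes that rose and 26.2% that fell in TAN, and the 18.3% that rose and 19.7% that fell in G-MDSC. Of 7 measured interferon genes, 4 rose in TAN relative to NN and none in G-MDSC. Ifnb1, the gene of IFN-β, had log2 signals of 8.48, 8.57, 7.89 and 8.40 in TAN and of 6.22, 5.95, 6.21 and 6.16 in G-MDSC, against 5.95 to 6.23 (median 6.11) in NN. Every G-MDSC and NN was below background, so that Ifnb1 was at least 3.64-fold higher in TAN than in NN (adjusted p = 1.82e-10) and at least 3.57-fold higher than in G-MDSC (adjusted p = 4.28e-09). This bound sets the mean of TAN against the lowest signal above background on each array of the other group, averaged over those arrays. The other risers were Ifna6 (0.53), Ifnz (0.46) and Ifne (0.34), and each overlapped with NN. Their TAN means were low, at 7.64, 7.07 and 6.99, and Ifnz was above background on 3 of the 4 TAN arrays. Ifng passed no test.

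Of 5 measured receptor genes, 1 rose and 3 fell in TAN, and 3 rose and 1 fell in G-MDSC. Ifngr1, the ligand-binding chain of the IFN-γ receptor, had log2 signals of 6.44, 6.48, 10.07 and 6.82 in TAN 1 to 4 and of 11.00, 11.76, 11.80 and 11.59 in G-MDSC, against 9.58 to 10.07 (median 9.75) in NN. TAN 3 lay at the top of the NN range, the other TAN far below, and G-MDSC above. Ifngr1 was above background on 2 of the 4 TAN arrays, TAN 3 and TAN 4, so that the size of its fall is uncertain. It fell by 2.33 in TAN (adjusted p = 0.00078) and rose by 1.76 in G-MDSC (adjusted p = 0.0116) relative to NN. Without TAN 3 the TAN mean was 6.58, against 9.78 in NN. Ifnlr1, the type III receptor chain, fell by 2.94 in TAN and by 1.57 in G-MDSC. Of 5 JAK and STAT genes, 3 rose in each population, with Jak2 up by 1.13 in TAN and 1.56 in G-MDSC. Of 5 inhibitors, 2 rose and 3 fell in TAN, and 2 rose and 1 fell in G-MDSC, and Socs3 rose most, by 4.60 in TAN and 3.91 in G-MDSC. Of 13 genes that act in or regulate the induction of interferon, 8 rose and 2 fell in TAN and 7 rose in G-MDSC. Among the risers were Irf5 (2.15 in TAN, 1.76 in G-MDSC) and Irf8 (2.46 in TAN, 1.06 in G-MDSC).

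Set beside the promoter letters, 9 of the 12 members with an ISRE match and 8 of the 16 without one rose in TAN relative to NN. In G-MDSC, 9 of the 12 with a match and 8 of the 16 without rose as well. Of all genes, 36.8% rose in TAN and 18.3% in G-MDSC. The median log2 difference was 1.82 with a match and 0.75 without for TAN minus NN, and 1.18 with and 0.76 without for G-MDSC minus NN. Oas3, whose stretch holds the letters, fell in TAN. The 8 members with a GAS match had medians of 1.90 for TAN minus NN and 0.65 for G-MDSC minus NN, and the 20 without one 1.16 and 1.18. These counts are descriptions of few genes, with no test.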

How the data were processed

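RNA pooled from 2 to 4 mice was hybridized to Illumina mouse Ref-8 bead arrays (1 color, 15 arrays, 25697 probes). The deposited array files hold a signal intensity per probe, as the authors exported it from Bead Studio, before any background subtraction or normalization. The authors' value table, with deposited intensities of 16322 probes, was quantile normalized and filtered by the authors on detection p, and served here as a filter and as an alternative. Its scale is linear and its columns rank each array's probes as the array files do, with a median of 190 in every column.

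Here background was corrected with limma 3.58.1 (normexp, offset 50), followed by quantile normalization and log2. Probes of the value table were kept where some pair of arrays differed at least 1.2-fold (16316, with 6 left out). Probes were named through the platform annotation, which gave no symbol for 995 of them. Above background means over the 95th percentile of the 9375 probes left out of the value table. One limma model with 3 groups was fitted to all 15 arrays, and p-values were adjusted over all kept probes (Benjamini-Hochberg). The fit was tested on simulated data. The study's methods name an analysis of variance, which was run as an unmoderated alternative.

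The members and the lists of pathway genes and markers were chosen with earlier results of these data known. Each array's value is given for members called with a log2 difference of 2 or more in size, and for Irf1, Irf7, Irf9, Stat2, Isg15, Usp18, Ifitm1 and Ifitm2; pathway genes are named by size. Arrays are separate pools of mice. Marrow cells were separated over Percoll by the methods, but by beads and a Ly6G sort by the labels. Promoters came from RefSeq (GRCm38.p6). Alternatives were another background correction, scaling, the authors' table, other probe filters, array weights, the replicate number or the background level as a block, arrays of one background level, the mean over a gene's probes, the unmoderated model, TAN 3 alone, and leaving out arrays.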

Additional observations from a re-analysis of the deposited data

Results flagged for a closer look

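In 5 of 108 gene and group pairs tested, 1 array stood far from the rest of its group, by its gap to the nearest array as a share of the group's range; chance gives about 5%. In 4 of the 5 the array was TAN 3. Oas3 was 10.88 in TAN 3, against 7.34 to 7.94 in the other TAN (share 0.831). Ddx58 was 9.39 in TAN 3, against 6.48 to 6.82 (share 0.885). Ifi35 was 10.51 in TAN 3, against 6.60 to 7.11 (share 0.870). Ifitm2 was 15.82 in TAN 3, against 14.69 to 14.80 (share 0.898). Rsad2 was lowest in TAN 4, at 14.19, against 14.68 to 14.71 in the other TAN (share 0.939). Ifitm1, although farthest apart in size, did not reach the limit.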

How the results depend on the processing

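The count of members that rose relative to NN stayed within 1.5 times in every alternative, at 22 to 27 for TAN and 19 to 29 for G-MDSC. Leaving out 1 array gave 22 to 23 higher and 3 to 6 lower for TAN minus NN, 22 to 28 higher and 0 to 1 lower for G-MDSC minus NN, and 9 to 17 higher and 7 to 10 lower for TAN minus G-MDSC. Of the calls, 25 of 26, 22 of 23 and 16 of 23 held in all such fits, and those lost were Irf9, then Bst2, and then Stat2, Irf1, Usp18, Oasl2, Eif2ak2, Gbp2 and Ifi35. For TAN minus G-MDSC, the count higher was 23 with array weights, 9 with the mean over a gene's probes and 9 without G-MDSC 3. Without TAN 3, Oas3, Ifitm1, Ifitm2, Ifi35 and Xaf1 gained a call for G-MDSC minus NN. In a fit with TAN 3 as the only TAN, where that single array is assumed to vary like those of the other groups, 0 members were lower in both TAN comparisons and 27 higher than NN. It turned TAN minus NN to 0.39 for Irf9, 0.59 for Oas3, 2.01 for Ifitm1 and 1.99 for Ifi35, and TAN minus G-MDSC to 0.45 for Stat2, 0.55 for Ifitm1 and 1.21 for Ifi35. The mean over probes turned TAN minus G-MDSC to -1.12 for Ifit3, -0.41 for Usp18, -0.57 for Oasl1, -0.15 for Oasl2 and -0.094 for Gbp2. The cause was not tested. With the background level as a block, 22 rose and 4 fell in TAN and 19 rose in G-MDSC relative to NN, with Irf9, Mx1, Bst2, Ifih1 and Zbp1 losing their G-MDSC call; 11 were higher and 7 lower for TAN minus G-MDSC. Within one background level, 23 rose and 3 fell in TAN, and 23 rose in G-MDSC. The replicate block gave 22 higher and 3 lower for TAN minus NN, 24 and 0 for G-MDSC minus NN, and 11 and 7 for TAN minus G-MDSC. Arrays with 1 number in different groups deviated with correlations of -0.31 to 0.27. These were not set against those of arrays with unlike numbers, so whether the numbers pair samples was not settled. Xaf1, Ifi204 and Mx1, near background, have differences that signal limits.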
